A study of Mus musculus with 9 samples.

Results

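The genes described here encode the extracellular and receptor layer of Wnt signalling, measured by RNA sequencing in mouse hearts. They were chosen by symbol, by a rule that uses no measured value but was set with earlier results of these data known: the numbered Wnt ligands, the Frizzled receptors (Fzd genes), the secreted Frizzled-related proteins (Sfrp genes), and Dkk1, Dkk2, Dkk4, Wif1, Frzb, Lrp5, Lrp6, Axin1, Axin2, Ror1, Ror2, Porcn, Rspo1, Rspo2 and Rspo3. The rule matched 48 of the 53465 gene IDs counted, of which 31 passed the filter on low counts and were tested. All mice were NOD-SCID, a strain that lacks mature T and B cells and keeps macrophages. The 9 libraries formed 3 groups of 3. The first came from hearts after sham surgery, the second from hearts after coronary artery ligation, and the third from hearts that had the ligation and then an implantation of cells named FOXO3-GE-MPCs. No group had an implantation without these cells, so the cells and the procedure cannot be told apart. The labels place every library in the infarct border zone, the sham libraries included. They give neither the age of the mice, nor the time after surgery, nor what the letters GE and MPC stand for. They do not say which library came from which animal, so that the spread between libraries may be technical in part.

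Wnt proteins are secreted lipid-modified ligands. In the canonical branch they bind a Frizzled receptor together with the co-receptor Lrp5 or Lrp6, which stabilizes beta-catenin and turns on target genes, Axin2 among them. Secreted antagonists act outside the cell: the Sfrp proteins, Frzb and Wif1 bind the ligand, while Dkk1, Dkk2 and Dkk4 act on the co-receptors. R-spondins raise the number of Frizzled receptors at the cell surface, and Ror1 and Ror2 serve a branch that does not need beta-catenin. In the heart the pathway is known from cardiac development and from scar formation and fibroblast activation after infarction.

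The deposited libraries held between 4549268 and 7515052 counts on genes. Levels are given as CPM, the counts of a gene scaled to a common library size with TMM factors, with the SD over 3 libraries, and changes as log2 fold changes with their standard error (SE). A gene passed the test at an adjusted p under 0.05 in edgeR's quasi-likelihood test, with the Benjamini-Hochberg adjustment over all 13825 genes tested. Intervals are 95% intervals of single genes and carry no adjustment. The share of counts on mitochondrial genes was 19.1% to 19.9% after sham surgery, 12.5% to 13.9% after ligation and 14.3% in each library with implanted cells. In their file headers, sham replicates 1 and 2 carry 1 name stem and ligation replicates 2 and 3 another. Whether they share an animal is not given in the sources used here. With each such pair summed to 1 library, every member that passed the test in the full set of libraries still passed. The source field of the cell replicates 2 and 3 names FOXO4 and FOXO5, and their title and treatment field, which were followed, name FOXO3.

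After ligation, 14 of the 31 tested members rose and none fell. They were the ligands Wnt4, Wnt2b and Wnt9a, the ligand-binding antagonists Sfrp1, Sfrp2, Frzb and Wif1, Rspo1, the receptors Fzd1, Fzd2 and Fzd7, the co-receptor Lrp6, and Axin1 and Axin2. Among all genes tested, 38.2% passed the test in this comparison and 20.1% did so as higher. The members' share, all of it higher, was 45.2%. At an unadjusted p under 0.05 in edgeR, 16 members were higher and 1, Sfrp5, was lower, and DESeq2 and limma called no member lower. The median log2 fold change was 0.41 over the 31 tested members and 0.01 over all genes. Among all genes that passed, 52.7% were higher. With library totals alone as the scale this share was 78.7%, the median over all genes was 0.20, and 19 members rose and none fell.

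With the cells implanted, only Sfrp1 and Sfrp2 of the 31 members passed the test against ligation alone, and they moved in opposite directions. Sfrp1 fell and Sfrp2 rose. In this comparison 9.87% of all genes passed the test, 4.19% as higher and 5.69% as lower, and 6.45% of the members. At an unadjusted p under 0.05, 5 members were higher and 6 lower, and DESeq2 and limma each called 1 higher and 1 lower. The median log2 fold change of the members was 0.08, beside 0.00 over all genes. Of the genes that passed, 42.4% were higher, and 32.0% with library totals alone, where the same 2 members passed.

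Against sham, the hearts with implanted cells had 14 higher members and no lower one, beside 40.9% of all genes past the test and 21% past it as higher. No member was lower at an unadjusted p under 0.05 in edgeR, or past the threshold in DESeq2 or limma. Of these 14, 12 had also passed, in the same direction, in ligation against sham, a comparison that shares its sham libraries. Fzd7 and Wnt2b passed after ligation alone, and Sfrp4 and Wnt10b with the cells alone. The differences between the calls of both comparisons were tested only as cells against ligation, where none of these 4 genes passed. Of all genes that passed against sham in this comparison, 51.2% were higher, and 73.1% with library totals alone, where 21 members rose. The remaining 15 tested members passed in no comparison: Fzd3, Fzd4, Fzd5, Fzd6, Fzd8, Fzd9, Lrp5, Porcn, Ror1, Ror2, Sfrp5, Wnt5a, Wnt5b, Wnt9b and Wnt11.

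**Figure D1:**
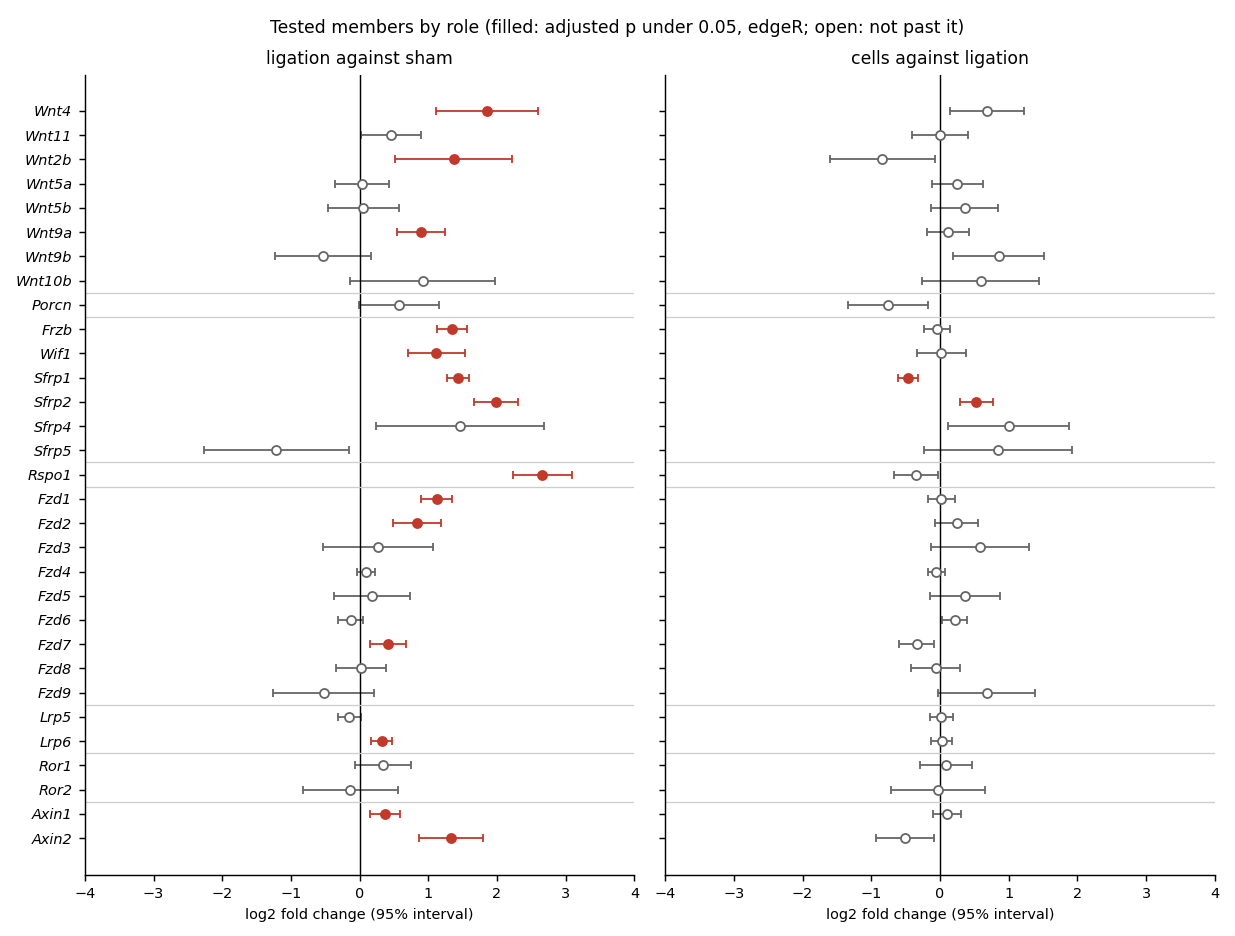
Log2 fold change (x axis) of the 31 tested members, ordered by role, for ligation against sham (left) and cells against ligation (right). Points are edgeR estimates with 95% intervals, filled where the adjusted p was under 0.05. On the left 14 filled points lie to the right of 0 and none to the left, and on the right only Sfrp1 (-0.46) and Sfrp2 (0.53) are filled.

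Of the secreted antagonists that bind the ligand, 4 of 6 rose after ligation, beside 20.1% of all genes. Sfrp1, a secreted Frizzled-related protein (ENSMUSG00000031548, chr8:23411502-23449632, plus strand, mm10), was at 34.4, 39.4 and 42.4 CPM in the 3 sham libraries. It was at 103, 99.0 and 110 CPM after ligation and at 76.9, 73.5 and 76.5 CPM with the implanted cells. The 3 groups did not overlap, with ligation highest and the cell group between both others. Sfrp1 was 2.69-fold higher after ligation (log2 1.43, SE 0.0768, adjusted p = 7.83e-12). With the cells it was 1.38-fold lower than after ligation alone (log2 -0.46, SE 0.0703, adjusted p = 0.000131) and still 1.95-fold above sham (adjusted p = 3.33e-09).

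Sfrp2, a second protein of the family (ENSMUSG00000027996, chr3:83766321-83774316, plus strand), was at 4.98, 3.79 and 5.24 CPM after sham surgery. It was at 19.0, 17.8 and 18.9 CPM after ligation and at 25.7, 26.1 and 28.5 CPM with the cells. The groups did not overlap here either, but the cell group was the highest. Sfrp2 was 3.96-fold higher after ligation (log2 1.98, SE 0.156, adjusted p = 2.41e-09). With the cells it was a further 1.44-fold higher than after ligation (log2 0.53, SE 0.116, adjusted p = 0.00445), 5.71-fold above sham. Of its 31-base sequences, 13.7% occur in another annotated gene, since its exons overlap Gm26771, which had at most 1 count in any library.

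**Figure D2:**
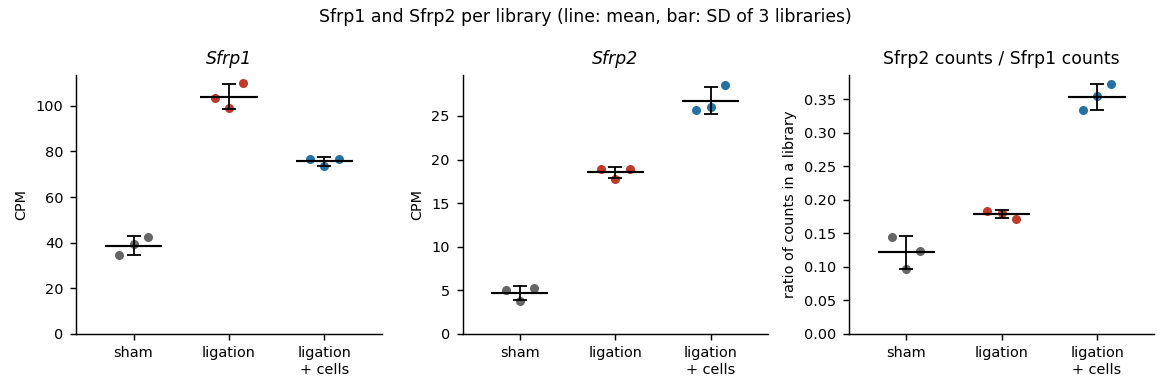
CPM of Sfrp1 (left) and Sfrp2 (middle) and the ratio of Sfrp2 to Sfrp1 counts (right) in each library (points) of the 3 groups (x axis), with the mean (line) and SD over 3 libraries (bar). Sfrp1 is highest after ligation (mean 104 CPM), while Sfrp2 (mean 26.8 CPM) and the ratio (mean 0.354) are highest with the implanted cells.

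The ratio of Sfrp2 to Sfrp1 counts within a library does not depend on how libraries are scaled. It was chosen after the values of both genes were seen and is given without a test. It was 0.145, 0.0962 and 0.124 after sham surgery, 0.184, 0.180 and 0.172 after ligation, and 0.334, 0.355 and 0.373 with the cells. The mean ratio was 1.98-fold higher with the cells than after ligation. Per kilobase of exon, Sfrp1 made up 41.5% ± 1.82 (SD, n = 3) of the summed level of the 6 ligand-binding antagonists after ligation and 31.5% ± 2.26 with the cells. The share of Sfrp2 was 15.0% ± 0.468 and 22.6% ± 1.26.

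Frzb, also known as secreted Frizzled-related protein 3 (chr2:80411970-80447625, minus strand), was at 23.1, 22.2 and 26.0 CPM after sham surgery and at 60.5, 63.1 and 57.9 CPM after ligation. With the cells it was at 51.1, 68.0 and 56.9 CPM. It rose 2.54-fold after ligation (log2 1.34, SE 0.103, adjusted p = 1.75e-09), and the cell group overlapped the ligation group. The difference between those groups was -0.04 on the log2 scale, with an interval from -0.23 to 0.15. Wif1, Wnt inhibitory factor 1 (chr10:121033960-121100650, plus strand), was at 4.45, 5.11 and 8.25 CPM after sham surgery, 13.0, 13.3 and 12.8 after ligation, and 11.5, 14.0 and 14.1 with the cells. It rose 2.17-fold after ligation (adjusted p = 0.000125), and its difference between cells and ligation was 0.02 on the log2 scale (interval -0.33 to 0.38).

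Sfrp4 was rare, at 1.42, 0.659 and 0 CPM after sham surgery, 1.49, 2.32 and 1.75 after ligation, and 4.82, 2.91 and 3.60 with the cells. Its groups did not overlap. It rose with the cells against sham (log2 2.46, SE 0.521, adjusted p = 0.000717), while neither step passed alone (log2 1.46 after ligation, adjusted p = 0.0558, and 1.0 for cells against ligation, adjusted p = 0.155). The ligation value passed in 4 alternatives: without sham replicate 1 (log2 2.47, adjusted p = 0.0119), with limma (2.17, adjusted p = 0.0231), with no filter (adjusted p = 0.0218) and with library totals alone (adjusted p = 0.0258). Sfrp5 was at 0.988 to 3.38 CPM after sham surgery and 0.426 to 1.01 after ligation (log2 -1.21, adjusted p = 0.0657). Without sham replicate 2 the value of Sfrp5 passed as lower (-1.54, adjusted p = 0.0254). Together the 6 antagonists summed to 71.7 to 83.7 CPM after sham surgery, 197 to 202 after ligation and 171 to 186 with the cells. These sums are mostly Sfrp1 and Frzb.

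Of the antagonists that act on the co-receptors, Dkk1 and Dkk4 had no count in any of the 9 libraries, in which 3 counts correspond to between 0.375 and 0.639 CPM. Dkk2 had 17, 15 and 8 counts in all over the sham, ligation and cell libraries, and it was not tested.

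Among the ligands, 3 of 8 tested genes rose after ligation (37.5%, beside 38.2% of all genes past the test and 20.1% past it as higher) and 11 of the 19 listed were not tested. Wnt9a (ENSMUSG00000000126, chr11:59306928-59333552, plus strand), which is known from joint and valve development, was at 8.01, 7.41 and 7.14 CPM after sham surgery. It was at 12.1, 13.9 and 15.4 CPM after ligation and 13.2, 18.0 and 14.1 CPM with the cells. Every ligated library was above every sham library, and the cell group overlapped the ligation group. Wnt9a was 1.86-fold higher after ligation (log2 0.89, SE 0.17, adjusted p = 0.000279). The difference between cells and ligation was 0.12 on the log2 scale (SE 0.149, interval -0.20 to 0.43, adjusted p = 0.709).

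Wnt4 (chr4:137277489-137299726, plus strand), a ligand best known from kidney and gonad development, had the largest log2 change of the 8 tested ligands in both comparisons with sham. It was at 1.25, 0.988 and 0.952 CPM after sham surgery, 3.84, 3.91 and 3.88 after ligation, and 4.68, 7.77 and 6.19 with the cells. It was 3.62-fold higher after ligation (log2 1.86, SE 0.355, adjusted p = 0.000286) and 5.80-fold above sham with the cells (adjusted p = 2.95e-06). The groups did not overlap, yet the difference between cells and ligation (log2 0.68, SE 0.258) had an adjusted p of 0.107. Of the 31-base sequences of Wnt4, 6.62% occur in another annotated gene.

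Wnt2b (chr3:104945272-104961921, minus strand) was at 1.78, 0.988 and 1.27 CPM after sham surgery, 1.70, 3.91 and 4.38 after ligation, and 1.42, 2.50 and 1.87 with the cells. Its sham and ligation libraries overlapped, since ligation replicate 1 lay within the sham range. The rise after ligation (log2 1.37, SE 0.406, adjusted p = 0.0112) did not pass without sham replicate 2 (adjusted p = 0.0555) or without ligation replicate 3 (adjusted p = 0.0849). Wnt10b rose with the cells against sham (log2 1.51, adjusted p = 0.0129), at 0.494 to 1.25 CPM against 1.87 to 2.91 CPM. This value did not pass without sham replicate 2, sham replicate 3 or cell replicate 2, with adjusted p between 0.0536 and 0.0681.

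Wnt5a, Wnt5b and Wnt11 are best known as ligands of the branch that does not need beta-catenin. Wnt5a was at 9.27 ± 2.29 CPM after sham surgery, 9.62 ± 0.785 after ligation and 11.4 ± 1.29 with the cells (SD, n = 3). Its change after ligation was 0.03 on the log2 scale, with an interval from -0.36 to 0.42. Against sham the cells value was 0.29 (adjusted p = 0.215), which passed without sham replicate 3 (0.51, adjusted p = 0.0410) and with library totals alone (0.45, adjusted p = 0.0481). Wnt11 was at 6.34 ± 0.852, 8.62 ± 1.95 and 8.69 ± 0.93 CPM (log2 0.45 after ligation, adjusted p = 0.0961). With library totals alone Wnt11 passed as higher in both comparisons with sham (0.64, adjusted p = 0.0166, and 0.61, adjusted p = 0.0206). Other annotated genes hold 8.02% of the 31-base sequences of Wnt11 and 4.18% of those of Wnt5a. The levels of Wnt5b were 5.47 ± 0.677, 5.66 ± 0.877 and 7.29 ± 2.05 CPM. Wnt9b, a ligand near Wnt9a in sequence, had a log2 difference of -0.53 after ligation (adjusted p = 0.231) and of 0.85 with the cells against ligation (adjusted p = 0.0998).

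Per kilobase of exon, Wnt9a was first of the tested ligands in all 3 groups, at 2.26 CPM per kb after sham surgery, 4.15 after ligation and 4.54 with the cells. After sham surgery it was followed by Wnt5b (2.06), Wnt11 (1.53), Wnt5a (1.18) and Wnt9b (0.899), and Wnt2b, Wnt4 and Wnt10b lay between 0.233 and 0.320. The sham ranges of Wnt9a (2.15 to 2.41) and Wnt5b (1.85 to 2.35) overlapped, as did those of Wnt11 and Wnt5a and those of the last 3. After ligation Wnt9a stood clear of Wnt5b, at 3.65 to 4.62 against 1.88 to 2.51, and Wnt4 had moved 2 places up, with a range inside that of Wnt2b (0.406 to 1.04). The share of Wnt4 in the summed level of the ligands per kilobase went from 2.57% ± 0.221 after sham surgery to 6.96% ± 0.518 after ligation and 9.28% ± 1.54 with the cells.

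Porcn, the enzyme that attaches the lipid to Wnt proteins, was at 2.49 to 6.19 CPM after sham surgery, 5.63 to 7.96 after ligation and 3.26 to 4.58 with the cells. The last 2 groups did not overlap. The log2 difference between them was -0.76 (SE 0.278, adjusted p = 0.0942), and it passed with no filter on low counts (adjusted p = 0.0436). After ligation the difference from sham was 0.57 (adjusted p = 0.120), which passed with library totals alone (0.75, adjusted p = 0.0319) and without sham replicate 3 (0.84, adjusted p = 0.0466).

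The ligands not tested were Wnt1, Wnt2, Wnt3, Wnt3a, Wnt6, Wnt7a, Wnt7b, Wnt8a, Wnt8b, Wnt10a and Wnt16. Wnt3, Wnt3a and Wnt8a had no count in any library, and Wnt10a and Wnt7b had 1 count each over all 9. Wnt2 was the most counted of these genes, with 20, 16 and 35 counts over the sham, ligation and cell libraries. Wnt6 had 20, 13 and 10. In the fit with no filter on low counts, the 12 of the 17 untested members that had any count passed in no comparison (lowest adjusted p = 0.168 in edgeR). At an unadjusted p under 0.05 only Fzd10 was higher there, with the cells against ligation and against sham, and none in ligation against sham.

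Rspo1, an R-spondin (ENSMUSG00000028871, chr4:124986430-125009099, plus strand), had the largest log2 change of all members after ligation. It was at 2.14, 2.97 and 2.70 CPM after sham surgery, 19.4, 14.0 and 16.8 after ligation, and 12.3, 14.4 and 12.1 with the cells. All 6 ligated hearts' libraries lay above 12 CPM and all sham libraries below 3 CPM. Rspo1 was 6.30-fold higher after ligation (log2 2.66, SE 0.206, adjusted p = 1.93e-09) and 4.94-fold above sham with the cells (adjusted p = 2.19e-08). The cell and ligation groups overlapped, with a difference of -0.35 on the log2 scale (SE 0.152, adjusted p = 0.165). Rspo2 had 3 counts over all libraries, and Rspo3 had 9, 6 and 20 counts over the sham, ligation and cell libraries. Neither was tested.

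**Figure D3:**
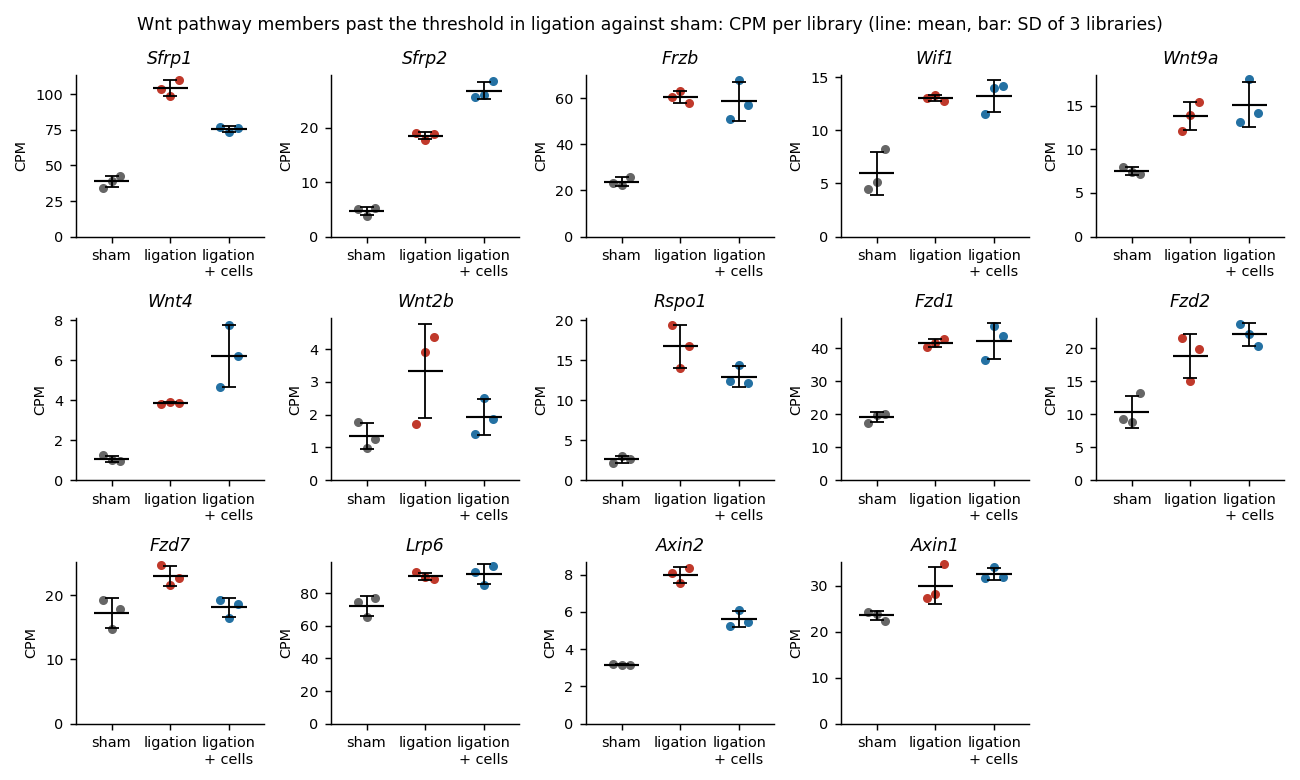
CPM (y axis, each from 0) in each library (points) of the 3 groups (x axis) for the 14 members that passed the test in ligation against sham, with the mean (line) and SD over 3 libraries (bar). The sham and ligation points overlap for Wnt2b, and the cell points lie wholly below the ligation points for Sfrp1, Axin2 and Fzd7 and wholly above them for Sfrp2 and Wnt4, of which Sfrp1 and Sfrp2 passed the test.

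Of the Frizzled receptors, 3 of 9 tested rose after ligation (33.3%, beside 38.2% of all genes past the test and 20.1% past it as higher). None passed between cells and ligation in edgeR, DESeq2 or limma, where 9.87% of all genes passed in edgeR. At an unadjusted p under 0.05 in edgeR, Fzd6 was higher and Fzd7 lower with the cells. Fzd1 (chr5:4753839-4758035, minus strand) was at 17.4, 19.8 and 20.2 CPM after sham surgery, 40.5, 41.5 and 42.8 after ligation, and 36.3, 46.7 and 43.8 with the cells. It rose 2.17-fold after ligation (log2 1.12, SE 0.106, adjusted p = 3.89e-08). Between cells and ligation it differed by 0.02 (interval -0.17 to 0.22). Fzd2 (chr11:102604396-102608058, plus strand) was at 9.25, 8.73 and 13.2 CPM after sham surgery, 21.5, 15.0 and 19.9 after ligation, and 23.7, 22.2 and 20.3 with the cells. It rose 1.79-fold after ligation (log2 0.84, SE 0.168, adjusted p = 0.000462), and between cells and ligation it differed by 0.24 (interval -0.07 to 0.55).

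Fzd7 (chr1:59482424-59486955, plus strand) was at 19.2, 14.7 and 17.8 CPM after sham surgery, 24.7, 21.6 and 22.6 after ligation, and 19.3, 16.4 and 18.6 with the cells. The ligation libraries lay above both other groups. The rise after ligation was 1.33-fold (log2 0.41, SE 0.127, adjusted p = 0.0142), and the cells against ligation difference was -0.34 (SE 0.123, adjusted p = 0.0921). The rise did not pass without sham replicate 2 (log2 0.31, adjusted p = 0.0849) or without ligation replicate 1 (0.36, adjusted p = 0.0517).

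Fzd4, a receptor that also binds norrin and is known from blood vessel growth, was the most abundant Frizzled per kilobase in all 3 groups. It was at 114 ± 2.57 CPM after sham surgery, 122 ± 9.21 after ligation and 117 ± 2.42 with the cells (SD, n = 3). Its log2 difference after ligation was 0.09 (interval -0.04 to 0.22, adjusted p = 0.281), and it passed as higher with library totals alone (0.28, adjusted p = 0.00148). Fzd6 was at 42.0 ± 3.18, 38.1 ± 3.26 and 44.5 ± 1.71 CPM. Fzd8 was at 9.77 ± 0.961, 9.75 ± 1.63 and 9.42 ± 1.09 CPM, and Fzd3, Fzd5 and Fzd9 lay below 8.4 CPM in every library. Of the 31-base sequences of Fzd5, 17.2% occur in another annotated gene. Between cells and sham, Fzd3 passed as higher without cell replicate 3 (1.09, adjusted p = 0.0255) and Fzd5 without cell replicate 1 (0.73, adjusted p = 0.0331). With library totals alone Fzd3, Fzd4, Fzd5 and Fzd6 all passed as higher in that comparison. Fzd10 had 6 counts, all in the libraries with cells, and was not tested.

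The make-up of the Frizzled group was different in the ligated hearts. After sham surgery the order per kilobase was Fzd4 (17.0 CPM per kb), Fzd6 (8.73), Fzd1 (4.56), Fzd7 (3.80) and Fzd2 (2.84), and the ranges of Fzd1, Fzd7 and Fzd2 overlapped from each to the next. After ligation Fzd1 (9.91, range 9.65 to 10.2) stood above Fzd6 (7.92, range 7.16 to 8.47). With the cells Fzd1 (10.1) and Fzd6 (9.24) overlapped. The share of Fzd1 in the summed Frizzled level per kilobase was 10.1% to 12.2% after sham surgery, 19.4% to 20.9% after ligation and 17.3% to 21.4% with the cells. That of Fzd4 was 40.5% to 43.0%, 35.9% to 37.4% and 33.2% to 35.9%. The share of Fzd6 was 20.9% to 22.1%, 14.7% to 17.9% and 17.7% to 18.3%. A share falls when other members rise, so a lower share of Fzd4 is no measure of a lower level.

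**Figure D4:**
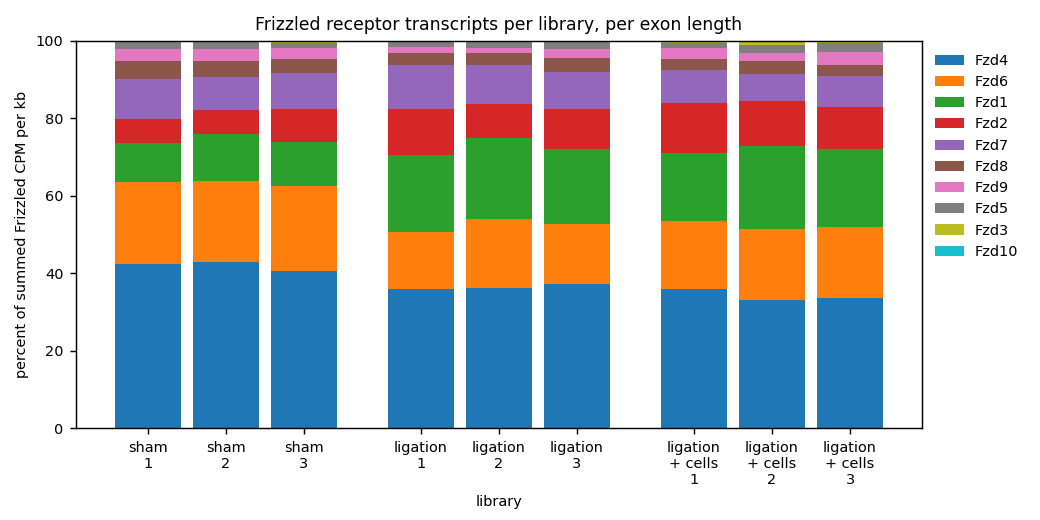
Percent of the summed Frizzled level, in CPM per kilobase of exon (y axis), taken by each of the 10 Frizzled genes (colours) in each of the 9 libraries (x axis, replicates of the 3 groups). Fzd1 takes 10.1% to 12.2% in the sham libraries and 17.3% to 21.4% in the 6 libraries of ligated hearts.

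The co-receptor Lrp6 (chr6:134446476-134566965, minus strand) was at 74.4, 65.4 and 77.3 CPM after sham surgery, 92.9, 89.7 and 88.9 after ligation, and 93.2, 85.2 and 96.9 with the cells. The 6 libraries of ligated hearts all lay above the 3 sham libraries. The rise after ligation was 1.25-fold (log2 0.32, SE 0.0726, adjusted p = 0.00143), and 0.51 on the log2 scale with library totals alone. Lrp5, the other co-receptor, was at 92.0 ± 6.82, 82.4 ± 10.3 and 84.2 ± 4.58 CPM, with a log2 difference of -0.15 after ligation (adjusted p = 0.167). That value was 0.04 with library totals alone, and without ligation replicate 3 it passed as lower (-0.24, adjusted p = 0.0451). The receptors of the other branch, Ror1 (8.24 ± 2.25, 10.5 ± 1.18 and 10.9 ± 1.23 CPM) and Ror2 (3.40 ± 0.143, 3.01 ± 1.33 and 3.03 ± 0.708 CPM), did not pass. Ror1 passed as higher without sham replicate 1, by 0.56 after ligation (adjusted p = 0.0455) and by 0.64 with the cells against sham (adjusted p = 0.0196). It also passed with library totals alone (0.52, adjusted p = 0.0318, and 0.57, adjusted p = 0.0169).

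Axin2 (ENSMUSG00000000142, chr11:108920349-108950783, plus strand), a scaffold of the complex that degrades beta-catenin and itself a widely used target of canonical signalling, was at 3.20, 3.13 and 3.17 CPM after sham surgery. It was at 8.10, 7.52 and 8.38 CPM after ligation and 5.25, 6.10 and 5.47 CPM with the cells. The groups did not overlap, and the cell group lay between both others, in the same order as Sfrp1. Axin2 was 2.52-fold higher after ligation (log2 1.33, SE 0.224, adjusted p = 7.59e-05) and 1.77-fold above sham with the cells (adjusted p = 0.00761). The difference between cells and ligation was -0.51 (SE 0.199), with an adjusted p of 0.120. Axin1, the constitutive scaffold (chr17:26138688-26195811, plus strand), was at 24.4, 23.9 and 22.4 CPM, then 27.3, 28.2 and 34.6, and 31.6, 34.0 and 32.0 with the cells. It rose 1.29-fold after ligation (log2 0.37, SE 0.107, adjusted p = 0.00981), which did not pass without ligation replicate 3 (0.22, adjusted p = 0.143) and was 0.56 with library totals alone. The cells against sham value of Axin1 was 0.47 (adjusted p = 0.0012).

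The promoters of the members were searched for the letters CTTTGAT and CTTTGTT, which are forms of the site that TCF and LEF factors bind. The search covered both strands of the 250 bases before each gene start in RefSeq (GRCm38.p6). One of the motifs was present in 2648 of 32851 such windows, 8.06%. The table held 34 windows for 31 of the 48 members, since RefSeq lists several starts for Wnt5b and Wnt11. A motif was present in 4 of the 34 windows (11.8%), 1 each of Dkk1, Fzd7, Wnt5b and Wnt11. The matches of Wnt5b and Dkk1 lie inside the GENCODE gene, at RefSeq starts further in. Of the 10 members with an entry that rose after ligation, 1 held a motif, Fzd7. The windows of Axin2, the pathway's own target, of Rspo1, which had the largest change, of Sfrp2, which passed in all 3 comparisons, and of Fzd7 are shown 5′ to 3′, with the motif in capitals. They lie at chr11:108920099-108920348, chr4:124986180-124986429, chr3:83766071-83766320 and chr1:59481897-59482146, all on the plus strand.
Axin2: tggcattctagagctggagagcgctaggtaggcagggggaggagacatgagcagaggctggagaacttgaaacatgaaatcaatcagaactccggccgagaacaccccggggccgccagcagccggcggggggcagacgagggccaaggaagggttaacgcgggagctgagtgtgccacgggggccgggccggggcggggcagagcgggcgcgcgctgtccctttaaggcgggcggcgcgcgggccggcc
Rspo1: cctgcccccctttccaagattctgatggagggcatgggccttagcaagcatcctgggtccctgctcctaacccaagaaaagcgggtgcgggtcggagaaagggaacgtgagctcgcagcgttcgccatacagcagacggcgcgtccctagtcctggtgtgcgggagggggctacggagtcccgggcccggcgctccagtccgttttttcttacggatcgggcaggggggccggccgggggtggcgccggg
Sfrp2: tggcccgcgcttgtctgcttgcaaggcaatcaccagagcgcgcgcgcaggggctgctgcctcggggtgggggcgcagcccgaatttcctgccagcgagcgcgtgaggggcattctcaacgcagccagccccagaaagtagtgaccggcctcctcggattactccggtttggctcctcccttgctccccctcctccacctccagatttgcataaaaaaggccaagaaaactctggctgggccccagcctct
Fzd7: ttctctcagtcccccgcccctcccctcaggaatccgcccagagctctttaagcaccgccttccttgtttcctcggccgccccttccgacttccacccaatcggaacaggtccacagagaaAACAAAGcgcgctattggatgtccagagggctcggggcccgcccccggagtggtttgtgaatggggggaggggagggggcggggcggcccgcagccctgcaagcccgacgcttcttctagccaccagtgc
In the Fzd7 window the capitals are CTTTGTT as read on the minus strand, and the match starts 130 bases before the RefSeq start. That start lies before the GENCODE start given above, from which the match is 407 bases away. The other 3 windows hold neither form. A match is a run of letters, not a measured binding site. Other forms of the site and sequence outside the 250 bases were not searched, so a window without a match does not show that a gene lacks such sites.

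Other genes of the pathway were taken from 4 lists that hold 75 genes in all, 62 of them tested. After ligation 24 rose and 4 fell, a share past the test of 45.2% beside 38.2% of all genes. Between cells and ligation 6 rose and 5 fell, 17.7% beside 9.87% of all genes. The median log2 fold change of the 62 was 0.13 after ligation, beside 0.01 over all genes. Among genes known as feedback regulators or targets of canonical signalling, 7 of 11 tested rose after ligation and 1 fell, 72.7% in all beside 38.2% of all genes. Ccn5, a secreted matricellular protein, was at 21.5, 16.6 and 18.4 CPM after sham surgery, 177, 167 and 173 after ligation and 140, 132 and 135 with the cells. It rose 9.15-fold after ligation (adjusted p = 2.87e-17) and was lower with the cells than after ligation (log2 -0.34, adjusted p = 0.00104). Ccn4, which belongs to the same family, rose by 2.15 on the log2 scale, Nkd2, an inhibitor of Dishevelled, by 1.88, Myc by 1.27, the surface receptor Cd44 by 0.97, Bambi by 0.73 and Apcdd1 by 0.70. The cyclin gene Ccnd1, also a target, fell by 0.22 on the log2 scale (adjusted p = 0.0292), a call lost in 7 of 19 alternatives: without sham replicate 1 or 3, without ligation replicate 1 or 2, with DESeq2, with no filter, and with library totals alone (-0.03). Between cells and ligation 2 of the 11 passed (18.2%, beside 9.87% of all genes), both lower, Ccn5 and Cd44 (log2 -0.38, adjusted p = 0.0258). That of Cd44 was lost in 5 of 19 alternatives, among them those without ligation replicate 1 or 3 and without cell replicate 1 or 2.

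Among other extracellular and membrane regulators, 9 of 17 tested rose after ligation and 2 fell, 64.7% in all beside 38.2% of all genes. Of those past 1 on the log2 scale, Gpc3 rose by 1.58, Gpc6 by 1.17, Tpbg by 1.12 and Dkk3 by 1.06. Lgr6, a receptor for R-spondins, fell by 1.51 and Sost, which encodes the co-receptor antagonist sclerostin, fell by 1.27. Lgr4, another receptor for R-spondins, did not go the way of Lgr6. Its level was 22.1 to 23.7 CPM after sham surgery, 25.8 to 30.3 after ligation and 37.5 to 38.7 with the cells. Tpbg did not pass in 6 of 19 alternatives, among them those without sham replicate 1 or 3 and without ligation replicate 2 or 3. Between cells and ligation 3 rose and 2 fell, 29.4% beside 9.87% of all genes. Dkk3, a secreted protein of the Dickkopf family that does not act on the co-receptors as Dkk1 does, was at 40.4, 45.0 and 42.4 CPM after sham surgery, 86.7, 92.6 and 87.3 after ligation and 140, 124 and 145 with the cells. The 3 groups did not overlap, and the cell libraries were the highest (log2 0.62 against ligation, adjusted p = 2.16e-06). Sost was at 9.61, 7.41 and 6.51 CPM, then 3.62, 3.62 and 2.63, and 0.993, 1.66 and 1.30 CPM with the cells (log2 -1.28 against ligation, adjusted p = 0.0193). That call was lost without ligation replicate 2 or without cell replicate 1 or 3. Gpc3, a glypican, was 24.5 ± 0.769 CPM after ligation and 17.6 ± 1.01 with the cells (log2 -0.47, adjusted p = 0.0133, and 0.0578 without cell replicate 3).

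Of 18 tested intracellular transducers, 7 rose after ligation and none fell, while DESeq2 called 4 higher and limma 8, and neither called any lower. At an unadjusted p under 0.05 in edgeR 8 were higher and none lower. The 38.9% past the test lie near the 38.2% of all genes. With the cells against ligation 2 rose (11.1%, beside 9.87% of all genes past the test). Beta-catenin itself, Ctnnb1, was at 283 ± 4.81 CPM after sham surgery, 307 ± 9.25 after ligation and 351 ± 11.3 with the cells, and it was 1.14-fold higher with the cells than after ligation (adjusted p = 0.0102). In the planar polarity and non-canonical list, 2 of 19 tested rose after ligation and 1 fell, a share of 15.8% beside 38.2% of all genes. Between cells and ligation 1 rose and 1 fell (10.5%, beside 9.87% of all genes). DESeq2 called none, limma 2 higher and 1 lower, and at an unadjusted p under 0.05 in edgeR 3 were higher and 3 lower.

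Markers of other cell types moved with these groups. Among all genes, 38.2% passed the test after ligation, 20.1% as higher. Between cells and ligation 9.87% passed, 4.19% as higher and 5.69% as lower. The marker counts here and in the next paragraph stand beside these shares. In whole tissue, fewer cells of a type and less RNA per cell cannot be told apart. All 7 epicardial and mesothelial markers rose after ligation, from a sum of 38.3 to 50.2 CPM to one of 239 to 280 CPM, and 3 of 7 fell with the cells, where the sum was 196 to 199 CPM. Of 8 myofibroblast and late scar fibroblast markers 6 rose and 1 fell after ligation (488 to 518 against 1110 to 1117 CPM), and with the cells 1 rose and 2 fell against ligation, at a sum of 1015 to 1059 CPM. In both of these lists the group means had ligation highest and sham lowest, as for Sfrp1, Rspo1 and Axin2. Of 8 fibroblast markers 4 rose and 2 fell after ligation (3930 to 3967 against 4275 to 4440 CPM), and none passed between cells and ligation in edgeR, DESeq2 or limma, with 1 higher and 1 lower at an unadjusted p under 0.05 in edgeR (4365 to 4485 CPM with the cells). Macrophage markers rose after ligation in 6 of 7 cases (560 to 615 against 1054 to 1090 CPM), and all 7 fell with the cells, to 434 to 456 CPM.

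Atrial markers moved with the implanted cells. Of 6, 5 rose and 1, Bmp10, fell against ligation, and the sum was 489 to 533 CPM after sham surgery, 409 to 448 after ligation and 1170 to 1236 with the cells. In ligation against sham 2 of the 6 rose and 3 fell, and in cells against sham all 6 rose. Dkk3 belongs to this list. The order of the groups differed from that of Sfrp2, which was lowest after sham surgery. Cartilage, tendon and valve matrix markers summed to 37.6 to 41.4 CPM, 61.9 to 71.3 and 81.7 to 89.7, with 5 of 6 tested higher after ligation and 2 of 6 higher with the cells than after ligation. Schwann and neural markers summed to 21.7 to 26.5, 28.8 to 33.9 and 57.8 to 68.7 CPM, with 1 of 5 higher in each of these comparisons. The mean sums of these 2 lists and of the fibroblast list were lowest after sham surgery and highest with the cells, the order seen for Sfrp2 and Wnt4. A sum can rest on single genes. Of the 5 Schwann and neural markers, 3 had a lower estimate after ligation than after sham surgery (median log2 fold change -0.18). The fibroblast sums of the ligation and cell libraries overlapped. Endothelial markers fell in 7 of 7 cases after ligation (2045 to 2158 against 1352 to 1426 CPM, and 1473 to 1514 with the cells, where 2 rose). Of 6 tested smooth muscle and pericyte markers 4 fell and 1 rose after ligation (1391 to 1424 against 966 to 993 CPM, and 941 to 994 with the cells, where 2 fell). Of 8 cardiomyocyte markers, which mark the labelled tissue, 6 fell and 1 rose after ligation (58885 to 60816 against 45854 to 48370 CPM, and 45705 to 46740 with the cells, where 1 rose and 1 fell). Bmp10 had no count in 1 sham library and Tnmd had none in 6 of the 9 libraries, and every other marker was counted in all 9. The part of these cell types in the values of the Wnt genes was not tested.

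**Figure D5:**
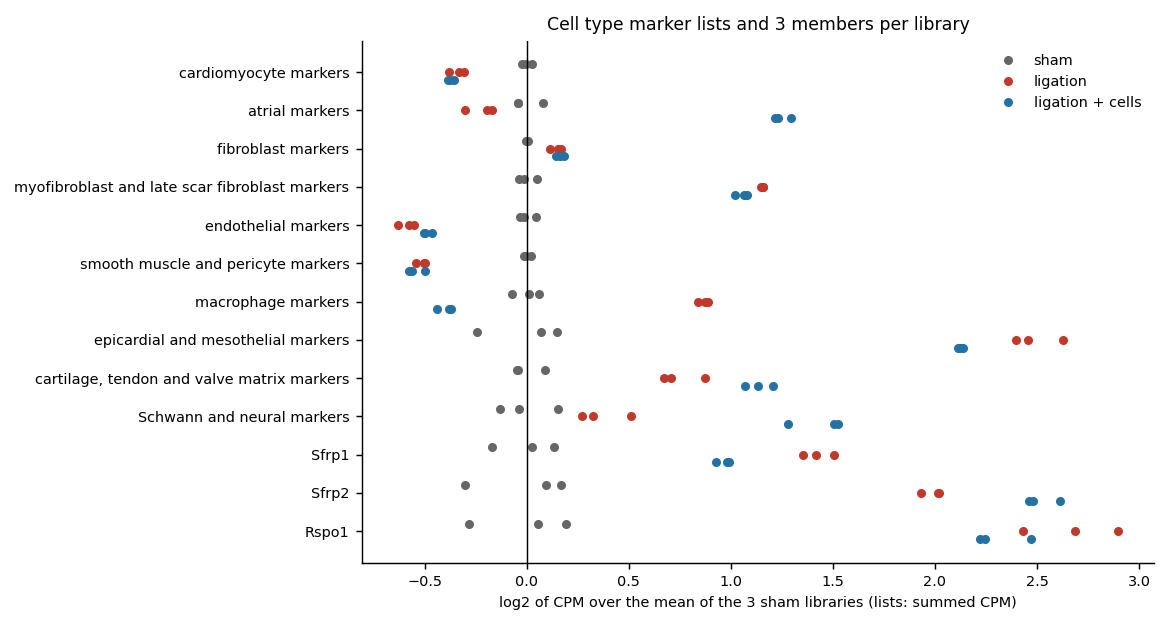
Log2 of the CPM in each library (points) over the mean of the 3 sham libraries (x axis) for the summed markers of 10 cell types and for Sfrp1, Sfrp2 and Rspo1 (rows). By group means, ligation is highest for the epicardial and mesothelial, myofibroblast and macrophage sums, Sfrp1 and Rspo1, and the cell group for the atrial, cartilage, Schwann and fibroblast sums and Sfrp2. The fibroblast sums of ligation and cells overlap, and 3 of 5 Schwann and neural markers had a lower estimate after ligation than after sham surgery.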

How the data were processed

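RNA was measured in 9 libraries of mouse heart, with groups and replicate numbers taken from the sample titles. Per the labels' protocols, TRIzol served for extraction and a NEBNext Ultra RNA kit for library preparation. The authors deposited 1 table of raw counts for each library, without normalization. Per the submitters' processing notes the build was mm10. The aligner, the counter and the strand setting are not given in the sources used here, so that reads of overlapping or antisense genes cannot be told apart. Each file ends in lines of the kind that htseq-count writes, and these were left out of all totals (no feature 4.14% to 4.91%, ambiguous 8.09% to 8.72%).

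GENCODE M21 gave a symbol for 53274 of 53465 gene IDs, coordinates and exon lengths. Counts were analysed in R 4.3.3 with edgeR 4.0.16 (filterByExpr, TMM, estimateDisp, glmQLFit, glmQLFTest), as 1 fit over all 9 libraries with 6 residual degrees of freedom, and p-values were adjusted over 13825 genes with the Benjamini-Hochberg method. The SE is the size of the log2 fold change divided by the square root of F. The method was tested on simulated data. Values per library are given for Wnt9a, Sfrp1 and Sfrp2 and for each member past an adjusted p of 0.05 in ligation against sham or in cells against ligation. Non-members are named from the pathway lists where they passed and changed by at least 1 on the log2 scale or are feedback targets. Other members and genes given with values (Sfrp4, Sfrp5, Wnt10b, Porcn, Fzd4, Lrp5, Ror1, Ctnnb1, Lgr4 and the like) were chosen after their values were seen. The members and lists were chosen with earlier results of these data known. Tiki2 matched no symbol, and Rspo4 had no count.

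Same-numbered replicates did not deviate together (correlations from -0.12 to 0.13 over 9 pairs and 9414 genes), so that the model has no replicate term. No 2 replicates agreed within sampling noise. Alternatives used DESeq2 1.42.0, limma 3.58.1 and other scalings, filters and sets of libraries.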

Additional observations from a re-analysis of the deposited data

How the results depend on the processing

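The members past the threshold, 14 after ligation, 2 between cells and ligation and 14 between cells and sham, were recounted under 19 alternatives. With 1 library left out at a time the counts ranged from 13 to 16, were 2 each time, and ranged from 13 to 15. Library totals alone gave 19, 2 and 21 members and no filter on low counts gave 15, 3 and 14. With the replicate number as a block, which the labels do not say pairs animals, the counts were 14, 2 and 14, and 5134, 1230 and 5511 genes in all, so the replicate block changed no call of a member. Every alternative kept Sfrp1 lower and Sfrp2 higher in cells against ligation. Of the values of single genes recomputed, 1313 kept their direction and side of the threshold, 30 lost the threshold, 22 gained it and 1 reversed: Lrp5 in ligation against sham, at 0.0402 with library totals alone, a scale that shifts the median of all genes by 0.19, -0.03 and 0.16 in the 3 comparisons. Summing libraries with 1 header stem, chosen after the headers were seen, gave 14, 2 and 14. The cause of these changes was not tested. The 17 untested members had at most 16 counts in a library, and with no filter 12 of them could be fitted and none passed.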
